A study of Mus musculus with 13 samples.

Results

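Skeletal myosin heavy chains are the motor proteins of the muscle sarcomere, and gluteal WAT, the subcutaneous white fat over the hindquarter of the mouse, is not a muscle. The 6 skeletal myosin heavy chain genes were taken by gene symbol from the 34419 genes of the count table. They are *Myh4* (ENSMUSG00000057003.13), *Myh1* (ENSMUSG00000056328.15) and *Myh2* (ENSMUSG00000033196.18) of fast fibers, *Myh7* (ENSMUSG00000053093.17) of slow fibers, and *Myh8* (ENSMUSG00000055775.17) and *Myh3* (ENSMUSG00000020908.15) of developing fibers. RNA was sequenced from gluteal WAT of 7 mice housed at 22°C, which is cool for a mouse, and 6 mice housed at 29°C, which is thermoneutral. All mice were C57BL/6J males that were bred and kept at their temperature from birth until 13 weeks of age. Both groups shared 2 further conditions, namely 1 mouse to a cage with sparse bedding and nothing to build a nest from, and hair taken off the hind part of the body with a depilatory once the pups were weaned. Each library came from 1 mouse, so p-values measure the spread between these mice.

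Each adult muscle fiber is built mainly from 1 or a few heavy chain isoforms, and the isoform sets how fast the fiber contracts and how it is fueled. *Myh4* encodes the 2B isoform of the fastest, most glycolytic fibers, *Myh1* the 2X isoform and *Myh2* the 2A isoform of fast oxidative fibers, and *Myh7* encodes the slow isoform, which is also made by the heart. *Myh3* is the embryonic and *Myh8* the perinatal isoform, and both return when adult muscle regenerates.

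The isoforms are so alike that their reads can be hard to assign, which bears on every count below. In the longest coding transcript of each gene (GENCODE M21, GRCm38), the coding sequences of *Myh1* and *Myh2* were 90.95% identical and those of *Myh1* and *Myh4* 90.1% identical, whereas *Myh7* shared between 76.71% and 77.57% with the other members. The 60-base stretch that differed most among all 6 genes, within a single exon of each, had 41 positions at which the genes were not all alike. It is shown as the stretch where the family as a whole was least alike, with those positions in capitals. The 2B and 2X genes differed from each other at only 4 of its bases. The 60-base stretches lie at chr11:67240728-67240787 (*Myh4*, in exon 2), chr11:67201986-67202045 (*Myh1*, in exon 3), chr11:67173220-67173279 (*Myh2*, in exon 3), chr14:54992713-54992772 on the minus strand (*Myh7*, in exon 4), chr11:67278967-67279026 (*Myh8*, in exon 3) and chr11:67080103-67080162 (*Myh3*, in exon 3), the other 5 on the plus strand.
Myh4: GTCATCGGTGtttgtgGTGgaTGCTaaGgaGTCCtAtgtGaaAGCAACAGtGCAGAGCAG
Myh1: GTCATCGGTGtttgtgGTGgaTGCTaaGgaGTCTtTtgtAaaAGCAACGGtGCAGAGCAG
Myh2: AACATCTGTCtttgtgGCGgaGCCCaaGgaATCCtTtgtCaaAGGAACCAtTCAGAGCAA
Myh7: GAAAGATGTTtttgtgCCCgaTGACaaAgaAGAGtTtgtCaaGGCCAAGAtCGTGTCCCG
Myh8: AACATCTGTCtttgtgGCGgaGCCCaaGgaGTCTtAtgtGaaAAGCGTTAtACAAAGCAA
Myh3: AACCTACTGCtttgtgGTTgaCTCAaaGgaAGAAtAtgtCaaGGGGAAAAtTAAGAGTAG

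At the other end, the most alike 60-base stretch differed at 4 positions over the 6 genes. It is shown for the 2B gene (exon 14, chr11:67246386-67246445, plus strand) and the slow gene (exon 16, chr14:54988401-54988460, minus strand), with the 4 positions in capitals.
Myh4: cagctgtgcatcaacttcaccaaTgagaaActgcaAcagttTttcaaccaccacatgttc
Myh7: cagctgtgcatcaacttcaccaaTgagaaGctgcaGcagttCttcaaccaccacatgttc

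Of all 50-base windows along these transcripts, between 18.9% (*Myh4*) and 26.9% (*Myh2*) of those of the 5 members other than *Myh3* occurred unchanged in a transcript of another gene, against 4.81% for *Myh3*. The other gene was *Myh6*, the cardiac isoform, for 22.21% of the windows of *Myh7*, and *Myh2* for 19.66% of those of *Myh1*. With 100-base windows the shares fell to between 1.15% (*Myh3*) and 11.2% (*Myh7*). The length of the reads and the rule for reads that match several genes are not given in the sources used here. Counts of *Myh1*, *Myh2* and *Myh8* in particular are therefore uncertain where a gene that shares their windows is far higher. Of the windows of *Myh8*, 9.31% at 50 bases and 1.44% at 100 bases occurred in *Myh4*. In 22°C replicate 7, *Myh8* had 842 counts against 480235 of *Myh4*. *Myh6* itself had at most 69 counts in a library.

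Upstream of 4 of these genes lies a shared stretch of sequence. In RefSeq windows from 250 bases before to 50 bases after each gene's start (GRCm38.p6), the longest run common to *Myh1*, *Myh2*, *Myh4* and *Myh8* was 14 bases long. It was picked after the sequences had been compared, and the 4 windows that held it on either strand, of 32851 promoter windows in all, were those of these genes (0.01218%). It was absent from the windows of *Myh3* and *Myh7*. The 100 bases around the run are shown with the run in capitals. The second capital stretch in *Myh4*, *Myh1* and *Myh8* is a match to the MEF2 site, the DNA sequence bound by the MEF2 muscle transcription factors, which 3.19% of all promoter windows held. The stretches lie on the plus strand at chr11:67237584-67237683 (*Myh4*), chr11:67199872-67199971 (*Myh1*), chr11:67170832-67170931 (*Myh2*) and chr11:67277000-67277099 (*Myh8*).
Myh4: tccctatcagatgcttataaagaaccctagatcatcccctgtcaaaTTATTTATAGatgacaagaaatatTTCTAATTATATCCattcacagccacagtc
Myh1: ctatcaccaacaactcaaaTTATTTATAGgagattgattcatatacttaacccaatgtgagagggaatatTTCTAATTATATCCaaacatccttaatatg
Myh2: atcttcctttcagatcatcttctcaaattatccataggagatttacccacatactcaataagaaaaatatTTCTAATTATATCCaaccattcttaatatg
Myh8: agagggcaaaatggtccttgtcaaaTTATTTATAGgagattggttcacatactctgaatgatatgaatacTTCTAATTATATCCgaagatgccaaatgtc

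The run began 158 bases before the start of *Myh4*, 160 before *Myh1*, 125 before *Myh2* and 54 before *Myh8*. The letters TATAAA were searched on both strands and held by 13.6% of all promoter windows. On the coding strand they stood 31, 32 and 29 bases before the starts of *Myh4*, *Myh1* and *Myh3*. That strand also held them 213 bases before the start of *Myh4* and 10 bases after that of *Myh2*. On the other strand they stood 179, 208 and 96 bases before the starts of *Myh4*, *Myh1* and *Myh8*. The window of *Myh7* did not hold them on either strand. For an E-box, spelled CANNTG and held by 72.3% of all windows, there were 3 matches in *Myh4*, 2 in *Myh8* and *Myh7*, 1 in *Myh3* and none in *Myh1* or *Myh2*. These matches describe letters only and no binding was measured.

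Total counts per library were between 22356637 and 25245785. Levels are given in CPM, which are counts scaled to library size by the TMM method. The limit for a gene with 0 counts (3 counts) was scaled by total counts alone, without TMM, and lay between 0.119 and 0.134 CPM. It is therefore not on the same scale as the levels, where 1 count was 0.0527 CPM in 22°C replicate 1 and 0.0376 CPM in 29°C replicate 4. Libraries of 22°C replicates 1 to 5 had lower totals than all others, so temperature can be compared at like totals over only 2 mice at 22°C. The tissue label fit the markers of white adipocytes, whose 7 genes summed to between 20280 and 31650 CPM in the cooler and between 26300 and 32200 CPM in the warmer mice, with *Cfd* (adipsin), *Fabp4* (a fatty acid binding protein) and *Lipe* (hormone-sensitive lipase) the most abundant by the mean over all 13 mice. The 6 markers of skeletal muscle other than myosins were also present in every library, summing to 530.1 to 50740 CPM in mice at 22°C and 84.25 to 4400 CPM in mice at 29°C. Satellite cell markers (3 genes) summed to at most 7.55 and 1.34 CPM in the cooler and warmer group, and cardiac markers (4 genes) to at most 4.38 and 1.70 CPM. The 3 brown fat markers summed to between 5.74 and 34.7 CPM at 22°C but to between 1.47 and 3.83 CPM in the warmer mice, and their part in the results on myosins was not tested. The 4 smooth muscle markers summed to between 107.3 and 358 CPM in the cooler and 194.4 and 264.9 CPM in the warmer mice, and the 4 of epidermis to between 1.74 and 77.8 and between 1.93 and 306.4 CPM. In whole tissue, fewer muscle fibers and less myosin RNA per fiber cannot be told apart.

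The amount of skeletal myosin RNA differed widely from mouse to mouse at both temperatures. Summed over the 6 genes, counts were lowest at 4541 and highest at 515408 at 22°C, with a median of 32199, which was between 0.0201% and 2.05% of a library. At 29°C they ran from 60 to 38178, with a median of 8259.5, or between 0.00024% and 0.151% of a library. The 3 highest totals, in 22°C replicates 7, 1 and 4, came from the cooler group, yet 22°C replicates 3, 5 and 6 held fewer counts than 3 of the mice at 29°C. 29°C replicate 6 stood apart with 60 counts, and its composition is therefore known only roughly.

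*Myh4*, the 2B isoform, was the most abundant member in 5 of 7 mice at 22°C and 4 of 6 mice at 29°C. At 22°C its lowest level was 67.4 CPM, its median 1186 CPM and its highest 21720 CPM, and at 29°C these were 0.758, 85.3 and 1197 CPM. The 2 groups overlapped, with 2 mice at 22°C far above all others (9967 and 21720 CPM, replicates 1 and 7). Its log2 fold change, 22°C relative to 29°C, was 3.73 (standard error 1.62; edgeR P-adj = 0.242), and it was 2.53 without 22°C replicate 7.

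*Myh1*, the 2X isoform, was the second most abundant member in most mice and led in 22°C replicates 4 and 5 and in 29°C replicate 4. Its level was lowest at 17.2 CPM, median 122 CPM and highest 4795 CPM at 22°C. At 29°C it was lowest at 0.758, median 69.8 and highest 594 CPM. The medians of *Myh1* were nearer to each other than those of *Myh4*, and only 3 mice at 22°C were above the highest mouse at 29°C. The log2 fold change was 2.54 (standard error 1.44; edgeR P-adj = 0.367), and 1.35 without 22°C replicate 1.

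*Myh2*, the 2A isoform, came to 2.04 CPM in the lowest mouse at 22°C, with a median of 39.0 CPM and a highest of 921.9 CPM. At 29°C its lowest, median and highest levels were 0.889, 16.8 and 47.9 CPM. Again 3 mice at 22°C, replicates 1, 4 and 7, exceeded every mouse at 29°C while the other 4 lay among them. Its log2 fold change was 3.26 (standard error 1.37; edgeR P-adj = 0.229), and 1.90 without 22°C replicate 1.

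*Myh7*, the slow isoform, was the member whose detection differed most between the groups. It was counted in 6 of 7 mice at 22°C and in 2 of 6 mice at 29°C. The 7 libraries at 22°C held 9741, 366, 40, 4210, 0, 132 and 537 counts, and the 6 at 29°C held 295, 15, 0, 0, 0 and 0, in order of replicate number. The lowest, median and highest levels were 0, 15.5 and 513.4 CPM in the cooler and 0, 0 and 11.3 CPM in the warmer mice, so the groups overlapped at the low end. Its log2 fold change of 5.72, with a standard error of 1.88, was not past the threshold (edgeR P-adj = 0.161). Leaving out replicate 1 of the cooler group gave 4.22, while leaving out replicate 1 of the warmer group gave 9.75. With the replicate number as block, in 6 mice a group, the log2 fold change was 6.48 and passed (edgeR P-adj = 0.0588), though the labels do not pair the mice.

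*Myh8* and *Myh3*, the isoforms of developing fibers, were low throughout. The perinatal *Myh8* had a lowest, median and highest level of 0.212, 2.28 and 38.1 CPM in the cooler and of 0.0421, 0.378 and 7.83 CPM in the warmer mice, with a log2 fold change of 2.67 (standard error 1.32; edgeR P-adj = 0.300; 1.96 without 22°C replicate 7 and 4.27 without 29°C replicate 5). The embryonic *Myh3* had 269 counts over all 13 libraries, of which 128 were in 22°C replicate 1, and none in 3 libraries. *Myh3* did not pass edgeR's filter on low counts and was not tested with it, and without a filter its log2 fold change was 2.49 (standard error 1.26; edgeR P-adj = 0.452).

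**Figure D1:**
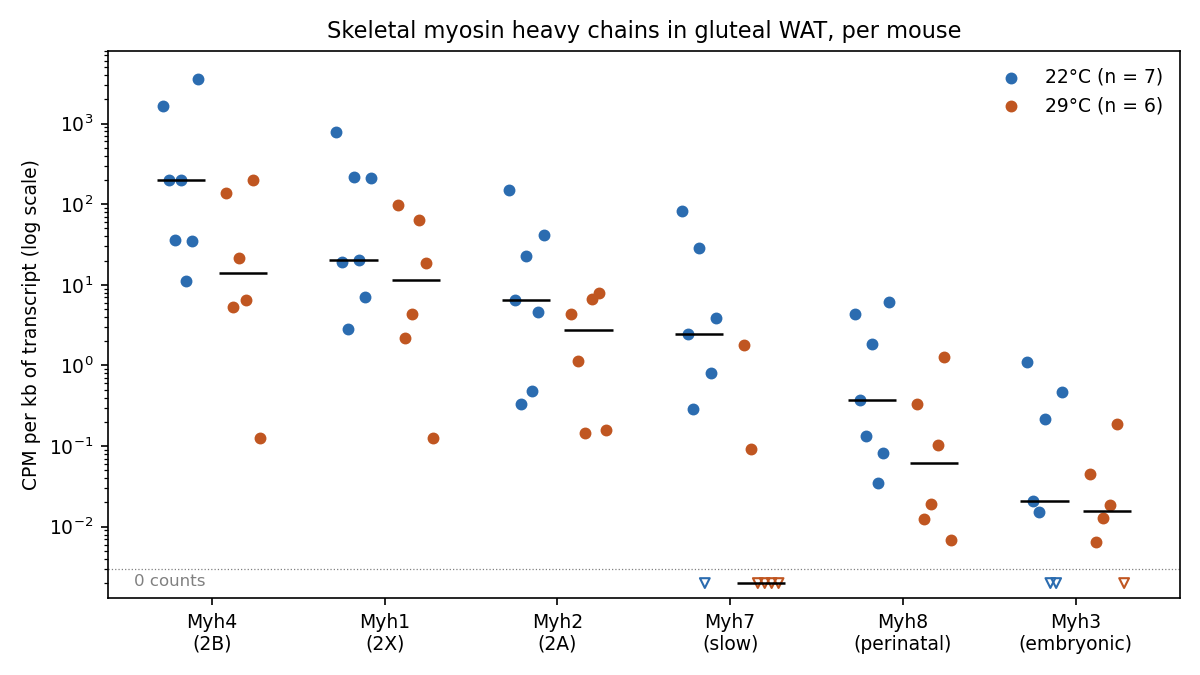
Level of each skeletal myosin heavy chain gene in every mouse, in CPM per kb of transcript on a log axis, with mice housed at 22°C in blue (n = 7), mice housed at 29°C in orange (n = 6) and a black line at each group's median. Open triangles under the dotted line are libraries with 0 counts, which for Myh7 were 1 library at 22°C and 4 at 29°C, and the groups overlap for every gene.

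None of the 5 members tested passed P-adj below 0.1 in edgeR fitted on temperature alone. In that fit 1.94% of the 17779 genes tested passed in either direction and 0.731% passed as higher at 22°C. All 5 were higher at 22°C by their fitted fold change, as were 51.6% of all genes tested. An unadjusted p below 0.05 was reached by 3 of the 5 (*Myh4*, *Myh2* and *Myh7*), against 18.5% of all genes tested. In no member were the groups free of overlap, which 1.24% of all genes tested were. With DESeq2, the tool used in the study, *Myh4* (P-adj = 0.0701) and *Myh2* (P-adj = 0.0795) passed and the other 3 did not, where 10.2% of the genes with an adjusted p passed. Per-mouse spread set the size of the errors and was wide in both groups. Within 22°C the highest mouse exceeded the lowest by 322 times for *Myh4*, 279 times for *Myh1* and 452 times for *Myh2*. Within 29°C, where replicate 6 had 60 myosin counts, these were 1580, 784 and 53.8 times.

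The isoforms were also fitted beside the other proteins of the sarcomere. When the mean log2 CPM of 12 sarcomere scaffold genes without any myosin was added to the fit as a covariate, the log2 fold change of *Myh4* was 0.34, of *Myh2* 0.03, of *Myh1* -0.30 and of *Myh8* -0.28, and none passed (P-adj from 0.874 to 0.992, edgeR). That of *Myh7* was 2.43 (standard error 1.21; edgeR P-adj = 0.449). With a covariate for the low or high library total, all 5 members remained higher at 22°C, from 1.80 for *Myh1* to 4.88 for *Myh4*, and none passed (P-adj from 0.322 to 0.739, edgeR).

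**Figure D2:**
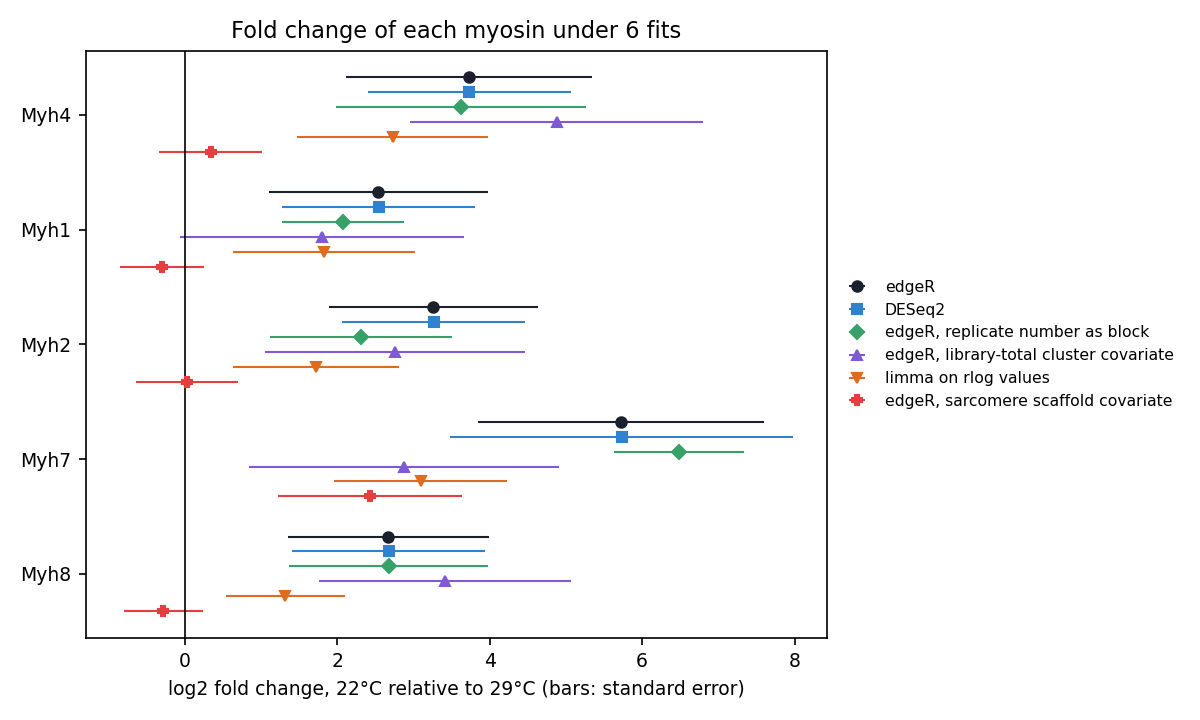
Log2 fold change of each tested myosin gene, 22°C relative to 29°C, with its standard error as a bar, in 6 fits (7 mice against 6, or 6 against 6 with the replicate number as block). Most fits lie to the right of 0, while with the sarcomere scaffold covariate in red Myh4, Myh1, Myh2 and Myh8 lie between -0.30 and 0.34 and Myh7 lies at 2.43.

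Fiber type composition was then compared, as the share of each class in the summed counts per kb of the 6 genes in a library. A share sets aside how much muscle RNA a library holds. Scaling by transcript length, which was between 6.016 and 6.23 kb, moved no share by over 0.327 percentage points. Fast isoforms made up most of the myosin in every mouse, and the mix of 2B and 2X varied most.

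The 2B share was lowest at 35.24%, median 73.53% and highest 93.25% at 22°C, and lowest at 8.53%, median 58.7% and highest 87.67% at 29°C. The 2X share ran from 5.41% to 63.12% at 22°C with a median of 14.95%, and from 8.22% to 82.65% at 29°C with a median of 27.6%. The 2X share exceeded the 2B share in 2 mice at 22°C (replicates 4 and 5) and in 1 mouse at 29°C (replicate 4). Per kb, 29°C replicate 4 held 9.69 times as much *Myh1* as *Myh4*, and 22°C replicate 5 held 1.79 times as much, whereas 22°C replicate 7 held 0.0580 times as much.

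The 2A share had a median of 2.84% at 22°C (0.847% to 9.63%) and of 6.06% at 29°C (0.557% to 38.21%). Its highest value, in 29°C replicate 6, rests on 23 of 60 counts, and the next highest at 29°C was 13.0%. Leaving out that mouse moved the difference between group means from -7.18 to -1.73 percentage points.

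The slow share was at most 6.02% at 22°C (replicate 4) and at most 1.06% at 29°C (replicate 2), with medians of 1.10% and 0%. Some of the zeros lay in libraries with many myosin counts. In 29°C replicate 5, 0 of 34954 myosin counts were *Myh7*, which allows a share of up to 0.00858% of counts, whereas 29°C replicate 1 with a like total of 38178 had 295, a share of 0.773% (Wilson 95% interval 0.69% to 0.866%). In 29°C replicate 4, 0 of 12427 counts allow up to 0.0241%, and in 22°C replicate 5, 0 of 4541 allow up to 0.0661%. In 29°C replicate 6, 0 of 60 counts allow up to 5% and so say little. These intervals and limits cover counting error only.

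The share of the developmental isoforms was under 0.5% in every mouse at 22°C, from 0.109% to 0.434%. At 29°C it was between 0.121% and 0.216% in 4 mice and 0.644% in replicate 5. The 1.64% of replicate 6 is a single *Myh8* count. How far reads shared with *Myh4* add to the counts of *Myh8* was not tested.

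**Figure D3:**
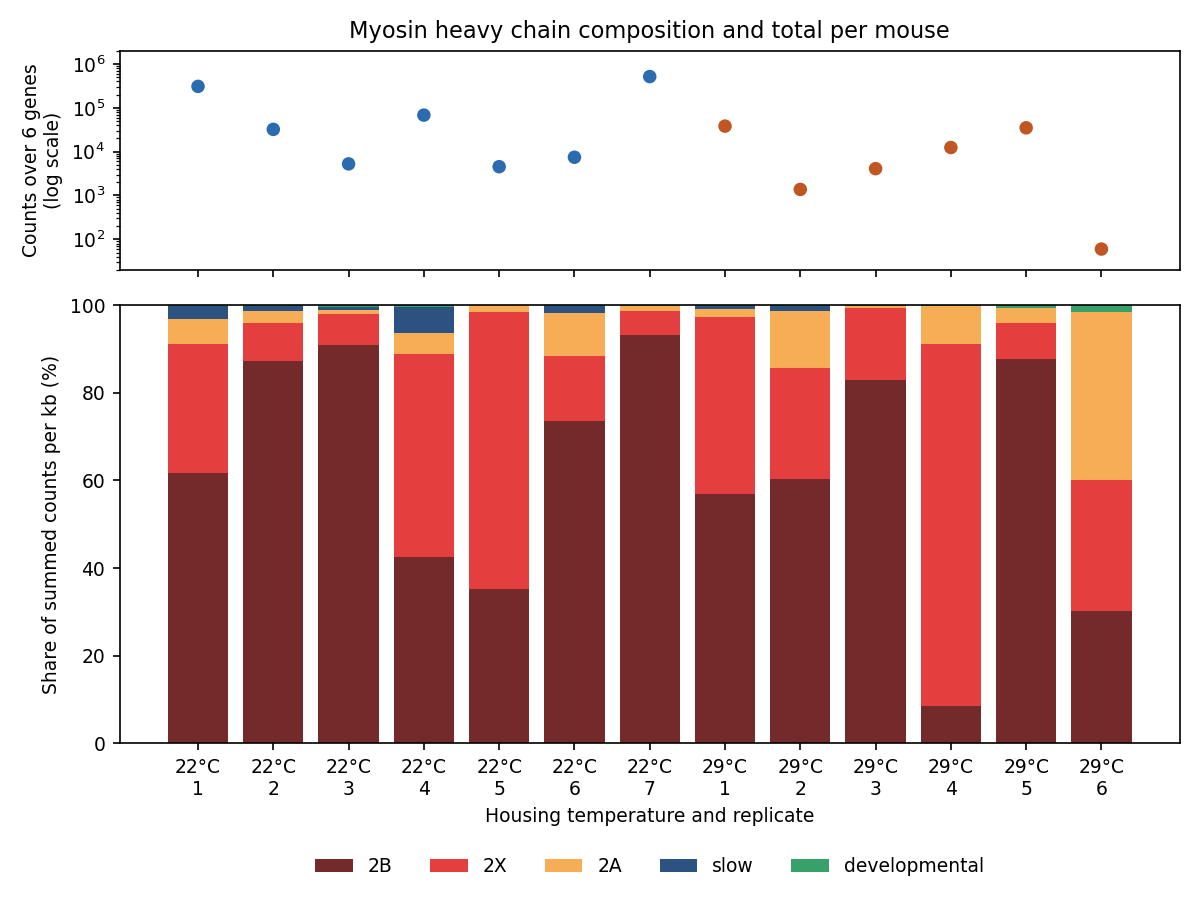
Lower panel: share of each fiber type class in the summed counts per kb of the 6 myosin genes, in percent, for each mouse by temperature and replicate. Upper panel: the counts behind each bar on a log axis (blue 22°C, orange 29°C), from 60 in 29°C replicate 6 to 515408 in 22°C replicate 7. Fast 2B and 2X isoforms fill most of every bar, with the largest 2A share (38.21%) in 29°C replicate 6, and the mix of 2B and 2X varies within both temperatures.

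No class share differed between temperatures beyond the spread between mice. As mean ± SD (n = 7 and n = 6), the 2B share was 69.2% ± 23.5 in the cooler and 54.5% ± 30.5 in the warmer mice (exact permutation p = 0.349, two-sided over all 1716 splits; P-adj = 0.447 over the 5 classes). The 2X share was 24.97% ± 22.4 against 33.8% ± 26.4 (exact permutation p = 0.525; P-adj = 0.525), and the 2A share 3.77% ± 3.18 against 10.9% ± 14.1 (exact permutation p = 0.192; P-adj = 0.447). The slow share, 1.82% ± 2.13 against 0.301% ± 0.477, had the smallest p (exact permutation p = 0.0909; P-adj = 0.447). The developmental share was 0.234% ± 0.121 against 0.490% ± 0.598 (exact permutation p = 0.358; P-adj = 0.447). Single mice set some of these differences. Without 29°C replicate 4 the difference in 2B fell from 14.7 to 5.55 percentage points and that in 2X went from -8.82 to 0.957, and without 29°C replicate 6 the developmental difference went from -0.256 to -0.0254. Without 22°C replicate 4 the slow difference was 0.819 points, against 1.52 with all mice. The shares of a library sum to 100, so these 5 tests are not independent.

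The order of the members within a mouse was alike in many libraries. Per kb, *Myh4* > *Myh1* > *Myh2* > *Myh7* > *Myh8* > *Myh3* held in 22°C replicates 1, 2, 3 and 6 and in 29°C replicates 1 and 2. In 22°C replicate 4 *Myh1* came before *Myh4* and *Myh7* before *Myh2*, and in 22°C replicate 7 *Myh8* came before *Myh7*. Across the 13 mice the log2 CPM of all 15 pairs of members were positively correlated. The pairs with *Myh3* rest on few counts, with a median of 3 over the 13 libraries and 0 in 3 of them. At 29°C its median was 2.5 counts and its highest 29, in replicate 5. At such counts the prior count of 2 sets much of the log2 CPM. The closest pair was *Myh3* and *Myh8* (Pearson's r = 0.935, Spearman's rho = 0.923; permutation p = 1e-05, the smallest that 100000 permutations can give, and 3e-05; adjusted over 15 pairs 0.00015 and 0.000225), with r of 0.967 within each temperature and 0.899 without the 2 mice farthest from the median. *Myh4* and *Myh8* followed (r = 0.900, rho = 0.962; permutation p = 2e-05 and 1e-05; adjusted 0.00015 for both), with 0.964 within 22°C and 0.804 within 29°C and 0.914 without the 2 farthest mice. The 5 pairs with *Myh7* had r from 0.66 to 0.749 over all mice. Their r was between 0.738 and 0.894 within 22°C and between 0.0902 and 0.418 within 29°C, where 4 mice had no *Myh7*. For comparison, *Myh1* and *Myh4* had r of 0.793 and 0.805 within the 2 temperatures. All members come from the same libraries and share their amount of muscle RNA. Reads that match several members may also be mixed between them, which was not tested.

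The genes whose levels followed each isoform most closely, out of all genes tested, are given as a description over 13 libraries. *Myh4* went with *Actn3* (r = 0.988), the α-actinin of fast fibers, *Ampd1* (r = 0.986), the muscle AMP deaminase, and *Pvalb* (r = 0.984), the calcium buffer parvalbumin of fast fibers. *Myh1* went with *Actn2* (r = 0.991), the α-actinin of all fibers, and *Smtnl1* (r = 0.976), and *Myh2* with *Myoz2* (r = 0.970), a Z-disc protein, and *Habp2* (r = 0.953). *Myh7* went with *Myl2* (r = 0.989), the regulatory light chain of slow and cardiac muscle. *Myh8* went with *Myod1* (r = 0.991), the myogenic transcription factor, *Rbfox1* (r = 0.984), a splicing factor, and *Ddit4l* (r = 0.983).

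Other genes of this kind were set apart as likely to overlap the myosin genes themselves in the annotation, which was not tested. With an unknown strand setting, their reads may not be told from those of the myosins. They were *Myhas* with *Myh1* (r = 0.991), *9430073C21Rik* with *Myh2* (r = 0.987), and *Mhrt* (r = 0.996) and *Gm31251* (r = 0.988) with *Myh7*. *Mhrt* was counted in the same 8 libraries as *Myh7* and in no other, with 2127 counts in 22°C replicate 1.

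**Figure D4:**
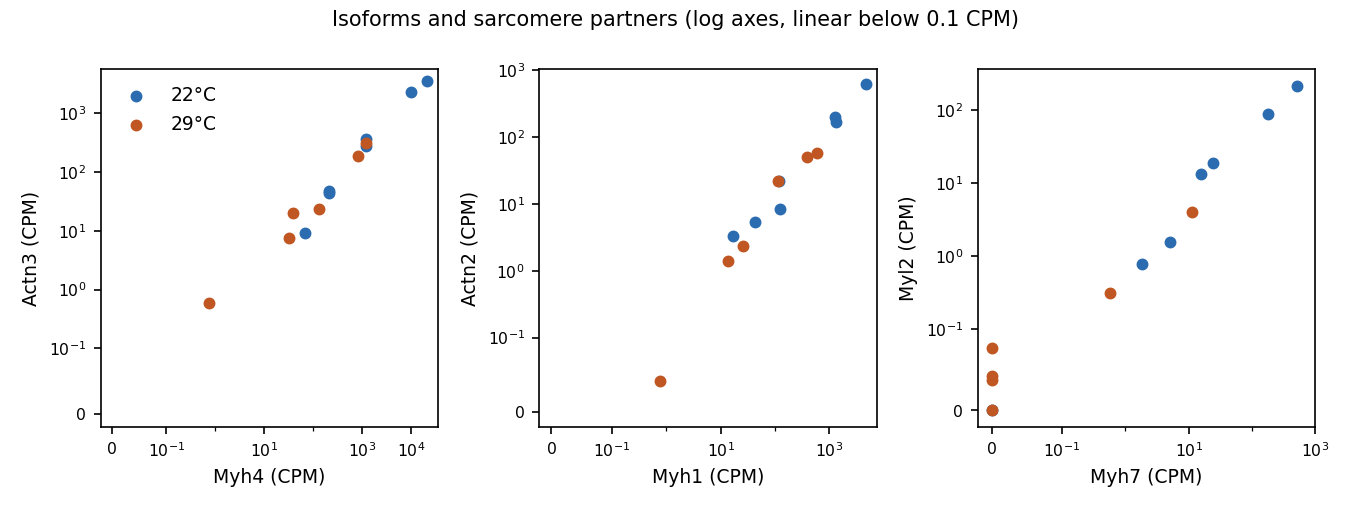
Level of Myh4 against Actn3, Myh1 against Actn2 and Myh7 against Myl2 in each of 13 mice, in CPM on log axes that are linear below 0.1 CPM (blue 22°C, orange 29°C). Mice of both temperatures lie along 1 line in each panel, and in the right panel the mice without Myh7 counts lie at the left edge, where 22°C replicate 5 is hidden under 29°C replicate 5 at 0 for both genes.

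*Myl2* was named because its level followed that of *Myh7*, so its likeness to *Myh7* is given by that choice. Its counts were 4067, 315, 17, 2111, 0, 40 and 415 at 22°C and 103, 8, 2, 1, 0 and 1 at 29°C, in order of replicate number. The mouse with the most *Myh7* also had the most *Myl2*, and the 5 mice without *Myh7* counts had at most 2 counts of *Myl2*. Its log2 fold change was 6.01 (standard error 1.73; edgeR P-adj = 0.123). *Tnni1*, the slow troponin I, had 6 to 1770 counts at 22°C and 1 to 68 counts at 29°C, so its groups overlapped (log2 fold change 4.91, standard error 1.49; edgeR P-adj = 0.139). In 29°C replicate 5, which had no counts of *Myh7* or *Myl2*, *Tnni1* had 27 counts, *Tnnt1* (slow troponin T) 23 and *Tnnc1* (slow troponin C) 23.

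Partner genes were counted by list, beside a median log2 fold change of 0.01 over all genes tested. For every list, the shares over all genes tested were 51.6% higher at 22°C, 1.94% passing in either direction and 18.5% with an unadjusted p below 0.05 (edgeR). Of 14 fast fiber partners, all 14 were higher at 22°C by their fitted fold change, none passed, 8 had an unadjusted p below 0.05 and the median log2 fold change was 2.97 (edgeR). The most abundant were *Atp2a1*, the calcium pump of fast fibers (4351 ± 6712 CPM in the cooler and 408.8 ± 466.6 CPM in the warmer mice, SD), *Ckm*, muscle creatine kinase, and *Tnnt3*, fast troponin T, with log2 fold changes of 3.41, 3.02 and 2.93. The 11 slow fiber partners were likewise all higher, with none passing, 9 under an unadjusted p of 0.05 and a median of 3.34 (edgeR). Their most abundant members were *Mybpc1*, a slow myosin binding protein (3.24), *Mb*, myoglobin (2.31), and *Atp2a2*, a calcium pump that other tissues also make, at 0.15 (standard error 0.15; edgeR P-adj = 0.632). At 29°C *Mybpc1* and *Mb* averaged 39.4 and 62.1 CPM, against 1.98 CPM for *Myh7* and 0.695 CPM for *Tnni1*. Whether *Mybpc1* and *Mb* came from slow fibers was not tested. All 12 scaffold genes were higher, 10 of them with an unadjusted p below 0.05 and none passing, with a median of 3.16 (edgeR). They were led by *Acta1* (2.93), skeletal actin, *Ttn* (3.21), titin, and *Neb* (3.47), nebulin.

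Regulators of fiber type had smaller fitted fold changes. All 14 were higher at 22°C, none passed, 9 had an unadjusted p below 0.05 and the median was 0.79 (edgeR). *Maf* (0.20), *Mef2a* (0.20) and *Mef2c* (1.91), transcription factors that other cells of fat also make, were the most abundant. Among 7 chaperones and turnover genes of myosin, 6 were higher and 1 lower, none passed and 6 had an unadjusted p below 0.05 (edgeR). *Smyd1*, a myosin chaperone of muscle, had a log2 fold change of 2.06 and *Fbxo32*, a muscle ubiquitin ligase, of 1.504, whereas *Hsp90aa1*, a general chaperone, had one of -0.32 (P-adj = 0.171, edgeR).

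Genes of developing or denervated fibers were counted in the same way. In this list of 12 genes, 6 passed the filter, of which 5 were higher and 1 lower at 22°C, none passed P-adj below 0.1 and none had an unadjusted p below 0.05 (edgeR). The most abundant were *Mybph* (0.20), *Myl4* (-0.04) and *Myf6* (2.29), a myogenic transcription factor. *Mybph* and *Myl4* did not follow the myosin total, with 891 and 352 counts in 29°C replicate 6, which had 60 myosin counts. The following genes were singled out after their values had been seen, and 8 of the 12 had their highest count in another library. *Mymk*, which encodes the myoblast fusion protein myomaker, had 24 of its 31 counts in 29°C replicate 5. *Chrng*, the acetylcholine receptor subunit of fetal and denervated muscle, had 51 of its 54 counts in that mouse. *Myog*, the transcription factor of differentiating myoblasts, had 56 counts there and at most 29 in any other library.

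That mouse was also the one with the highest developmental share among those with over 60 myosin counts. It may be set beside 22°C replicate 2 and 29°C replicate 1, which had like myosin totals (32199 and 38178 against 34954). *Myh3* had 29 counts in 29°C replicate 5 and 3 and 7 in the other two. *Myh8* had 200 counts against 54 and 54. *Chrna1*, a receptor subunit of the same kind as *Chrng*, had 93 against 0 and 7, and *Myod1* 83 against 22 and 22. *Pax7*, the marker of satellite cells, had 4 counts against 3 and 3. *Myf5* had 2 against 4 and 1, and *Myl4* 341 against 366 and 243, so neither was above both other mice. *Mybph* had 1339 against 852 and 1072, and *Ncam1* 111 against 49 and 60. In 29°C replicate 6, with 60 myosin counts, *Mybph* had 891 and *Ncam1* 38 counts, so neither followed the myosin total alone. *Myf6* had 192 against 75 and 79, and *Actc1* 238 against 66 and 18. In 1 mouse these values have no replicate.

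Of the 8 other myosin heavy chain genes, the most abundant had fitted fold changes near 0. *Myh9*, a nonmuscle myosin, was 229 ± 18.8 CPM in the 7 cooler mice and 268 ± 25.4 CPM in the 6 warmer mice (SD), with a log2 fold change of -0.22 (standard error 0.08; edgeR P-adj = 0.174). *Myh10*, also nonmuscle, was 65.5 ± 19.2 and 63.8 ± 5.91 CPM, and *Myh11*, the myosin of smooth muscle, 44.7 ± 18.2 and 46.7 ± 5.60 CPM, with log2 fold changes of 0.04 and -0.06. *Myh14* (0.64; P-adj = 0.216, edgeR) and *Myh7b*, an ancient sarcomeric myosin (1.43; P-adj = 0.226, edgeR), did not pass either. *Myh13*, the isoform of extraocular muscle that lies in the same cluster, had at most 93 counts and, with *Myh6* and *Myh15*, did not pass the filter.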

How the data were processed

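Gluteal WAT libraries of 7 mice at 22°C and 6 at 29°C were grouped by the temperature and replicate number in the labels. The authors aligned reads with STAR 2.7.5a to GRCm39, per the labels, and deposited raw counts per gene from featureCounts for 34419 genes. They also deposited regularized log2 values from DESeq2, used here only in an alternative. The strand setting, annotation and rule for reads that match several genes are not given in the sources used here. Symbols were matched by gene identifier without its version (34006 genes). Sequences come from RefSeq GRCm38.p6 and GENCODE M21 (GRCm38), another build than that of the counts.

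Counts were compared with edgeR 4.0.16 in R 4.3.3 (filterByExpr, TMM, quasi-likelihood F test, Benjamini-Hochberg adjustment over all genes tested, P-adj below 0.1). Standard errors were obtained from the fold change and its F statistic. Log2 CPM used a prior count of 2. Shares were counts per kb of the longest coding transcript over the sum of the 6 genes, compared by two-sided exact permutation tests at 0.05, with scipy 1.17.1. Coding sequences were aligned with MAFFT 7.526.

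The genes named are the 6 members, the 8 other myosin heavy chains, the 3 most abundant tested genes of each list, and the 3 genes most correlated with each tested member. Members and lists were chosen with earlier results of these data known. Alternatives were DESeq2 1.42.0, which replaced no count of these genes, its size factors, 2 other filters, robust fits, the replicate block, 2 covariates, limma 3.58.1 on the log2 values, other share definitions and leaving out each mouse. Tested on simulated counts for this comparison (17579 genes kept), edgeR called 63.6% of genes changed by a log2 of 1 and 96.9% of those changed by 2. The changed genes were picked at random from all genes, so these rates do not hold for the myosins. The standard errors of the tested myosins were 1.32 to 1.88. No pair of the 78 pairs of libraries agreed within sampling noise (lowest chi-square per gene 11.3).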

Additional observations from a re-analysis of the deposited data

Results flagged for a closer look

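Within each group, the highest or lowest mouse was compared with the rest by its gap to the nearest mouse relative to the range, for 6 levels and 5 shares in 2 groups. In 9 of 22 cases 1 mouse stood apart. The cutoffs give about 1 in 20 by chance for values that follow a normal curve. Levels in CPM and shares were used without a log and were skewed, so that rate does not apply to them. Levels of the members are also correlated, so these cases are not independent. 22°C replicate 1 was far above the next mouse at 22°C for *Myh1* (4795 against 1325 CPM), *Myh2* (921.9 against 251.6 CPM), *Myh7* (513.4 against 176.6 CPM) and *Myh3* (6.75 against 2.85 CPM).

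29°C replicate 1 was far above the others at 29°C for *Myh7*, with 11.3 CPM against 0.579 CPM in the next. 29°C replicate 5 stood apart for *Myh8* (7.83 against 2.07 CPM) and *Myh3* (1.14 against 0.269 CPM), the isoforms of developing fibers. 29°C replicate 6, with 60 myosin counts, stood apart in its 2A share (38.21% against 13.0%) and developmental share (1.64% against 0.644%).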

How the results depend on the processing

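Of 45 alternative fits of the 5 members other than leaving out a mouse, 43 kept the direction of the fold change. With the sarcomere scaffold covariate *Myh1* went to -0.30 and *Myh8* to -0.28. DESeq2 called *Myh2* (3.27) and *Myh4* (3.73). Without 1 mouse, log2 fold changes were 1.35 to 3.35 for *Myh1*, 1.90 to 3.71 for *Myh2*, 2.53 to 4.59 for *Myh4*, 4.22 to 9.75 for *Myh7* and 1.96 to 4.27 for *Myh8*, and none passed (edgeR). The cause of these changes was not tested.

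The replicate block called *Myh7* (6.48; P-adj = 0.0588, edgeR, where 1.49% of genes passed), used 6 mice a group, and changed no other member's call. With it 263 genes passed over all genes, against 345. The labels tie the numbers to no shared litter, batch or animal, and whether same-numbered mice shared any was not tested. Same-numbered mice had correlated deviations from the group means (0.348 to 0.513) except number 5 (0.0508), and 4 of 6 mice at 22°C correlated best with their own number. For shares, sign flips over 6 pairs cannot give p under 0.0312, or 0.156 adjusted for 1 share alone, so their failure to pass says nothing on stability.

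No share passed after adjustment, but the higher-total libraries (2 against 6 mice, smallest p 0.0357) could not pass for 1 share alone either. Unadjusted, the exact permutation p of the slow share was 0.0238 when 22°C replicate 5 was left out and 0.0433 when 22°C replicate 7 was, and that of the developmental share 0.0425 as centred log2 ratios. The 2X difference reversed with a denominator without *Myh4* (1.16 points) and without 29°C replicate 4 (0.957 points). That denominator gave a slow difference of 5.44 points (exact permutation p = 0.0157; P-adj = 0.0629 over 4 classes). Leaving out a mouse, differences in points ranged from -9.26 to -1.73 for 2A, -15.2 to 0.957 for 2X, 5.55 to 21.4 for 2B, 0.819 to 1.82 for slow and -0.330 to -0.0254 for developmental.

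The number of genes called over the whole table was 1676 with DESeq2, 42 with no filter on low counts, 4 with the library-total covariate, 40 at P-adj below 0.05, and 32 (without 29°C replicate 3) to 652 (without 22°C replicate 6) when 1 mouse was left out. Depth limits shares most in 29°C replicate 6.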
